A study of Mus musculus with 6 samples.

Results

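HIF and hypoxia response genes, the genes through which cells sense and answer low oxygen, were followed in single cells of mouse melanoma tumours. The 32 genes are a named list of HIF subunits, oxygen sensors and known HIF targets, and each symbol was found among the 31053 genes of all 6 deposited matrices. The rule names genes and sets no limit on their values. The tumours came from male C57Bl/6 mice aged 6 to 8 weeks that were injected under the skin with 600000 YUMMER1.7 cells, a mouse melanoma line derived by ultraviolet irradiation and used because it provokes an immune response. The 3 sedentary libraries (sedentary 1, 2 and 3) came from mice that did not run, and the 3 exercise libraries (exercise 5, 6 and 8) from mice made to run at 12 m/min, 45 min daily, over 14 days. Every tumour thus grew from a single injected line in hosts with an intact immune system. Whole tumours were digested for 15 minutes at 37 degrees and passed through a 100 micrometre strainer, with no sorting. RNA of single cells was then counted by the 10x Genomics 3′ version 3 method, in which a unique molecular identifier (UMI) marks each captured molecule. The labels do not say that each library is a separate mouse, so p-values measure only the spread between these libraries, which may be in part technical.

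The hypoxia-inducible factors are pairs of an alpha subunit, such as HIF-1 alpha (Hif1a) or HIF-2 alpha (Epas1), and the stable partner ARNT. While oxygen is present, prolyl hydroxylases (Egln1, Egln3) mark the alpha subunit for destruction by the VHL ubiquitin ligase. When oxygen is scarce the subunit lasts, enters the nucleus and binds the core letters ACGTG or GCGTG in the control regions of its targets, which move cells from respiration to glycolysis, tune mitochondria, remodel collagen, hold pH and call for vessels. Because the alpha subunit is controlled mainly as a protein, its RNA is a weaker readout than the RNA of its targets. In solid tumours the response is known from cells far from vessels.

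Promoter sequences show how the core letters lie in the members whose levels later differed most between high-score and other tumour-like cells, a score based on detected members that is defined with those results. All 32 symbols were matched in RefSeq (GRCm38.p6), with Ero1l listed there as Ero1a, and 24 had a promoter sequence. The 250 bases before each start were searched for ACGTG and GCGTG on both strands. The letters were found in 21 of the 24 members (87.5%), and in 41.5% of 27025 genes with a promoter sequence. At least 2 matches were found in 14 members (58.3%), and in 18.7% of all genes. The members' promoters were rich in the dinucleotide CpG, which both motifs contain, with a median of 18 per promoter against 6 in all promoters. Among the 6389 genes with at least 18 CpG, 73.1% held a match and 41.9% at least 2. The members with a sequence but no match were Gbe1, Mif and Vldlr. A match is a description of letters, not a binding site, and its part in any level below was not tested.

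The sequences below read 5′ to 3′ along the gene's strand, and capitals mark the core letters or their reverse complement. Ero1l, whose product is an oxidase that forms disulphide bonds in the endoplasmic reticulum, has 3 matches, which begin 128, 88 and 63 bases before the start. The window lies at chr14:45318573-45318822 on the minus strand, and 69 of its bases overlap an annotated exon of another Ero1l transcript. Car9, a cell surface carbonic anhydrase that hydrates carbon dioxide outside the cell, has 1 match 18 bases before its start. Only the last 30 bases of its window are shown (chr4:43506996-43507025, plus strand), which lie in an annotated 5′ UTR of a Car9 transcript. Adm, the gene of the vessel-dilating peptide adrenomedullin, has 2 matches 90 and 54 bases before the start (chr7:110627407-110627656, plus strand). Ankrd37, an ankyrin repeat gene that is a known HIF-1 target, has 4 matches that begin 241, 155, 152 and 6 bases before the start, of which the middle pair overlap (chr8:45999851-46000100, minus strand). Its last bases overlap an annotated UTR by 17 bases.
Ero1l: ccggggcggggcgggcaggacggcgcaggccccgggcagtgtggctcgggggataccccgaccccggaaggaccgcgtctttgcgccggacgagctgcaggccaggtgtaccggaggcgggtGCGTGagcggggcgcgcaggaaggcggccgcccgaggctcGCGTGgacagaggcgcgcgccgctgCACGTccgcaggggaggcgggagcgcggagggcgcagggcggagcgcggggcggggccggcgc
Car9: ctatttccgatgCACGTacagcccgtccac
Adm: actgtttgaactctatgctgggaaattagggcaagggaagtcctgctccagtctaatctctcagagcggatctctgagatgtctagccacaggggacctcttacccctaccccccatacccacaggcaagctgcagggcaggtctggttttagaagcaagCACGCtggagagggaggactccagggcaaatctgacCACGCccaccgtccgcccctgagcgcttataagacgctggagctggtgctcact
Ankrd37: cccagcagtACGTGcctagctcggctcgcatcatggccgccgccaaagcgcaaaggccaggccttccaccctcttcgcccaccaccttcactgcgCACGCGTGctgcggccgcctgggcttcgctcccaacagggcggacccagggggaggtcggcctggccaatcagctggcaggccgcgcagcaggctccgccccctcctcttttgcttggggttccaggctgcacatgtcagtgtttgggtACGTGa

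The libraries held 58351 barcodes and between 97426009 and 131778565 UMIs each, and 51529 cells were kept. Cells were assigned to classes by marker genes, none of them a member of the list. The 27669 tumour-like cells made up 37.8% to 61.1% of a library. They held Cspg4 (47.9 CPM, the count of a gene's UMIs scaled to the total UMIs of the class), Cdh2 (53.0 CPM) and Nes (54.0 CPM). These genes are among the 9 tumour markers that defined the class, so their presence follows from the gate. Of the other markers, Sox9 stood at 124 CPM, Csrp2 at 421 CPM and Gpc3 at 1.53 CPM, and Mia had 8 UMIs. Axl was lower in tumour-like (82.2 CPM) than in macrophage-like cells (126 CPM). Of the pigment cell genes, Mlana had 6 UMIs, Tyr 5, Tyrp1 1, Dct 8 and Sox10 1 among 592468521, and Pmel had 155 (0.262 CPM, against 0.319 CPM in macrophage-like cells). Mitf, a regulator of pigment cells that is also a tumour marker of the gate, stood at 10.03 CPM in tumour-like and 22.3 CPM in macrophage-like cells. The defining pigment genes of melanoma were thus nearly absent. Macrophage-like cells numbered 8431 and T and NK-like cells 3271, and the other classes held 824 cells or fewer each. A further 10845 cells (21.0% of those kept, 16.7% to 23.2% of a library) met no rule and had no class. Over all kept cells, sedentary 2 and exercise 5 had the lowest median UMIs per cell (6490 and 5895). In tumour-like cells alone they had the highest (26013.5 and 21936, against 15921 to 19634 in the other libraries). Libraries shared 16 to 29 barcodes per pair, at most 0.323% of the smaller library.

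In tumour-like cells most hypoxia response genes had lower mean levels in the exercise libraries, but none passed the test. Of the 32 members, all of which passed the filter on low counts, 28 had a log2 fold change below 0, as did 50.1% of the 14372 genes tested. Their median log2 fold change was -0.28, against -0.00 over all genes. By edgeR's quasi-likelihood test 0 members passed an adjusted p of 0.05, and so did 0% of all genes, while DESeq2 called 29 genes and 0 members. At an unadjusted p under 0.05 stood 2 members, Ankrd37 and Mxi1, and 4.15% of all genes. Exercise 6 held the lowest level of 28 of the 32 members, and of 15.96% of all genes. Without exercise 6 the members' median was -0.10, with 27 still below 0, and without sedentary 3 it was -0.18, also with 27. All levels below are CPM, given in the order sedentary 1, 2 and 3 and then exercise 5, 6 and 8.

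**Figure D1:**
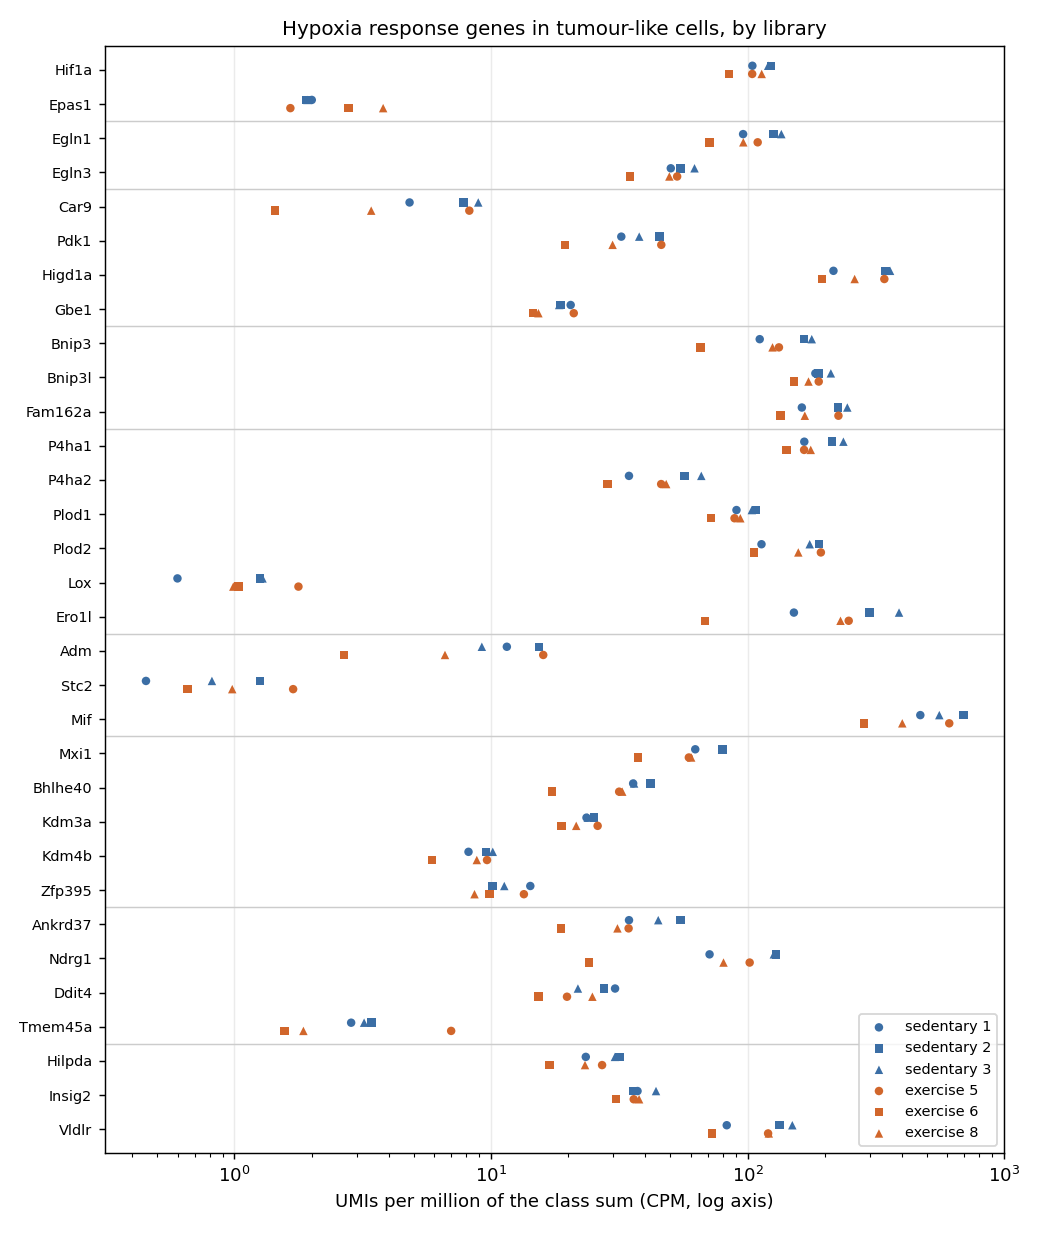
Level of each member in tumour-like cells of each library, in CPM on a log axis (sedentary in blue, exercise in orange), with members grouped by role. The points of the groups are interleaved for 29 of the 32 members, and exercise 6 lies lowest for 28, for example Ero1l at 68.2 CPM against 152 to 389.5 CPM in the other libraries.

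None of the HIF subunits and oxygen sensors separated the groups. Hif1a (chromosome 12, 73901375 to 73947530 in GRCm38) stood at 104, 123 and 120.3 CPM in the sedentary group, then 104, 84.6 and 114 CPM with exercise, with a log2 fold change of -0.21 (SE 0.13). Epas1 (chromosome 17, 86753700 to 86833410) stood at 2.001, 1.91 and 1.92 CPM and at 1.65, 2.78 and 3.80 CPM, with 0.50 (SE 0.28). Both genes overlapped between the groups, Hif1a being lowest in exercise 6 and Epas1 highest in exercise 8, without which its log2 fold change was 0.19. Egln1 (chromosome 8, 124908587 to 124949324), the main oxygen-sensing hydroxylase, stood at 96.1, 126 and 135 CPM and at 109.5, 71.0 and 96.2 CPM. Egln3 (chromosome 12, 54178981 to 54203860), a hydroxylase that HIF itself induces, stood at 50.2, 54.9 and 62.1 CPM and at 53.1, 34.9 and 49.6 CPM. Their log2 fold changes were -0.38 (SE 0.19) and -0.29 (SE 0.17), and in both genes exercise 5 lay above sedentary 1. The adjusted p was 0.996 for every member by edgeR.

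Of the 32 members 3 separated the groups, all lower in exercise. They were among the transcription regulators and HIF-induced genes of unknown or stress-related role. Among all genes 8.60% separated the groups, a share close to that of the members, and 4.78% did so with exercise lower. Ankrd37 stood at 34.5, 54.8 and 44.9 CPM in the sedentary group, then 34.4, 18.7 and 31.1 CPM with exercise, with means of 44.7 ± 10.1 and 28.1 ± 8.25 CPM (SD, n = 3 each). Mxi1, a partner of MAX that opposes MYC, stood at 62.5, 79.7 and 79.5 CPM and at 59.0, 37.4 and 60.3 CPM (means 73.9 ± 9.87 and 52.2 ± 12.9). Bhlhe40, a repressor tied to the circadian clock and to hypoxia, stood at 35.8, 41.8 and 36.1 CPM and at 31.6, 17.2 and 32.5 CPM (means 37.9 ± 3.37 and 27.1 ± 8.54). The gap between the groups was narrow for Ankrd37 and Mxi1, whose lowest sedentary library lay just above the highest exercise library. Their log2 fold changes were -0.68 (SE 0.25) for Ankrd37, -0.51 (SE 0.20) for Mxi1 and -0.49 (SE 0.23) for Bhlhe40. Without exercise 6 they were -0.45, -0.31 and -0.24. In tumour-like cells the smallest adjusted p by edgeR or DESeq2 of these 3 members, the HIF and Egln genes and the others named for a small p was 0.556 over all alternatives, for Ankrd37. Ddit4, an inhibitor of the growth kinase complex mTORC1, stood at 30.4, 27.6 and 21.8 CPM and at 19.8, 15.3 and 24.8 CPM (log2 fold change -0.41, SE 0.19). Exercise 8 lay above sedentary 3 for this gene, so the groups overlapped. Ndrg1, a stress-induced gene linked to differentiation, stood at 71.1, 129 and 127 CPM and at 102, 24.1 and 80.6 CPM (-0.67, SE 0.48). Only exercise 6 lay below all sedentary libraries. The histone demethylase genes Kdm3a (-0.13) and Kdm4b (-0.20), the transcription factor gene Zfp395 (-0.16) and Tmem45a (0.11) had log2 fold changes within 2 SE of 0.

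Collagen and protein folding enzymes were also interleaved. P4ha1, the catalytic subunit of a prolyl hydroxylase that collagen needs to fold, stood at 166, 214 and 236 CPM in the sedentary group, then 166, 142 and 176 CPM with exercise (-0.35, SE 0.16). Plod1, which hydroxylates collagen lysines, stood at 90.5, 108 and 104 CPM and at 89.0, 71.9 and 93.7 CPM (-0.25, SE 0.13). In both, sedentary 1 lay among the exercise libraries. Ero1l stood at 152, 299 and 389.5 CPM and at 248, 68.2 and 230.3 CPM (-0.63, SE 0.50). It was the member with the widest spread among those above 100 CPM, with a highest library 5.71 times the lowest. P4ha2 (-0.37), Plod2 (-0.07) and Lox (0.26), the last an enzyme that crosslinks collagen and stood at 0.599 to 1.78 CPM, were within 2 SE of 0.

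Exercise 6 was the lowest library for the mitochondrial and energy genes given here. Bnip3, a receptor for the removal of mitochondria, stood at 112, 166 and 178 CPM in the sedentary group, then 133, 65.5 and 125 CPM with exercise (means 152 ± 35.5 and 108 ± 36.8, log2 fold change -0.50, SE 0.29). Its relative Bnip3l had the smallest spread over the 6 libraries of all members, 152 to 211 CPM with a coefficient of variation of 10.8%. Pdk1, the kinase that holds pyruvate out of mitochondria, ranged from 19.4 CPM in exercise 6 to 46.1 CPM in exercise 5 (-0.28, SE 0.29). Car9 ranged from 1.44 CPM in exercise 6 to 8.92 CPM in sedentary 3 (-0.75, SE 0.55) and varied by 52.2%. Higd1a (-0.22), Gbe1 (-0.18), Fam162a (-0.27) and Bnip3l (-0.19) lay within 2 SE of 0. Over all 32 members, exercise 5 held the highest level of 8 and exercise 6 the lowest of 28, so the exercise group was spread wide.

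The secreted factors and lipid genes showed no separation either. Adm stood at 11.5, 15.4 and 9.21 CPM in the sedentary group, then 15.98, 2.67 and 6.61 CPM with exercise (-0.53, SE 0.54), so that its highest and lowest values were both in the exercise group. Mif, a cytokine that attracts and holds macrophages, ranged from 285 to 695 CPM (-0.42, SE 0.27). Mif has processed pseudogenes in the mouse genome, so its counts are less certain. Stc2, a secreted glycoprotein hormone gene, stood at 0.452 to 1.69 CPM (0.38, SE 0.45). Hilpda, which slows fat breakdown in lipid droplets, stood at 23.4, 31.7 and 30.4 CPM and at 27.1, 16.9 and 23.2 CPM (-0.35, SE 0.19). Insig2, a brake on cholesterol synthesis, and Vldlr, a lipoprotein receptor, had log2 fold changes of -0.17 (SE 0.13) and -0.23 (SE 0.27).

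Macrophage-like cells gave a similar picture. Of the 28 members tested there, 27 had a log2 fold change below 0, as did 51.2% of 11065 genes, with a median of -0.36. By edgeR 0 members passed, as did 0% of all genes, while DESeq2 called 2 genes and 0 members. At an unadjusted p under 0.05 stood 4 members and 3.13% of all genes. Ankrd37 stood at 25.8, 74.7 and 54.7 CPM in the sedentary group, then 31.2, 20.1 and 26.5 CPM with exercise (log2 fold change -1.05, SE 0.36). Ddit4 stood at 30.5, 64.5 and 54.2 CPM and at 19.0, 8.01 and 41.1 CPM (-1.18, SE 0.49). In both genes sedentary 1 lay within the range of the exercise libraries. Ero1l (114, 207 and 252 CPM, then 130.02, 65.3 and 137 CPM) had a log2 fold change of -0.83 (SE 0.35), and Adm (10.8, 7.81 and 4.05 CPM, then 4.97, 0.586 and 3.61 CPM) one of -1.24 (SE 0.54). Exercise 6 was lowest for 29 of the 32 members, and for 12.6% of all genes. Without it the median was -0.22, with 24 members below 0, and without sedentary 3 it was -0.24, with 26. The groups separated for 2 members, Lox and Stc2, and for 7.56% of all genes, but both had too few UMIs to be tested.

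In T and NK-like cells 22 of 24 tested members had a log2 fold change below 0, as did 49.3% of 9154 genes, with a median of -0.27. Again 0 members and 0% of genes passed edgeR, and DESeq2 called 1 gene and 0 members. At an unadjusted p under 0.05 stood 2 members and 3.36% of genes. Bnip3 stood at 28.4, 58.6 and 55.9 CPM in the sedentary group, then 25.0, 23.4 and 28.9 CPM with exercise (-0.85, SE 0.26). Ndrg1 stood at 21.6, 35.7 and 41.3 CPM and at 17.8, 18.3 and 22.6 CPM (-0.70, SE 0.25). In both genes sedentary 1 lay below exercise 8, the overlap being small. With no filter on low counts Bnip3 passed (edgeR adjusted p = 0.0266, log2 fold change -0.84), as the only member among 33 genes called of 16424 tested. With the filter its adjusted p by edgeR was 0.999. Egln3 separated the groups, at 7.19, 11.2 and 8.51 CPM against 6.26, 5.12 and 5.21 CPM, as did Adm, which had too few UMIs to test, and 8.89% of genes. The Egln3 level in this class was only 0.126-fold the tumour-like level by edgeR. Free RNA, given below at 7.11% to 9.78% for stromal genes, may be part of it, which was not tested. Exercise 6 was lowest for 12 of the 31 members with a UMI in this class, and for 13.2% of genes, and without it the median was -0.14. It was -0.10 without sedentary 2, with 19 members below 0, -0.16 without sedentary 3 and -0.44 without sedentary 1. With a stricter gate it was -0.15, with 17 below 0.

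The sum over all kept cells gave 28 of 32 members below 0, a median of -0.30 and 0 members called by edgeR. The median was -0.16 without exercise 6 and -0.19 without sedentary 3. Of the 15482 genes tested there, 47.2% lay below 0 and 0% were called, while DESeq2 called 18 genes and 0 members, and 4 members and 2.67% of genes had an unadjusted p under 0.05. In such a sum fewer cells of a type and less RNA per cell cannot be told apart. The difference of the exercise effect between macrophage-like and tumour-like cells was tested directly. It was called for 0 members and for 0% of 14773 genes by edgeR, with 2 members, Adm and Ddit4, and 4.44% of genes at an unadjusted p under 0.05. These comparisons share the same 6 libraries.

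**Figure D2:**
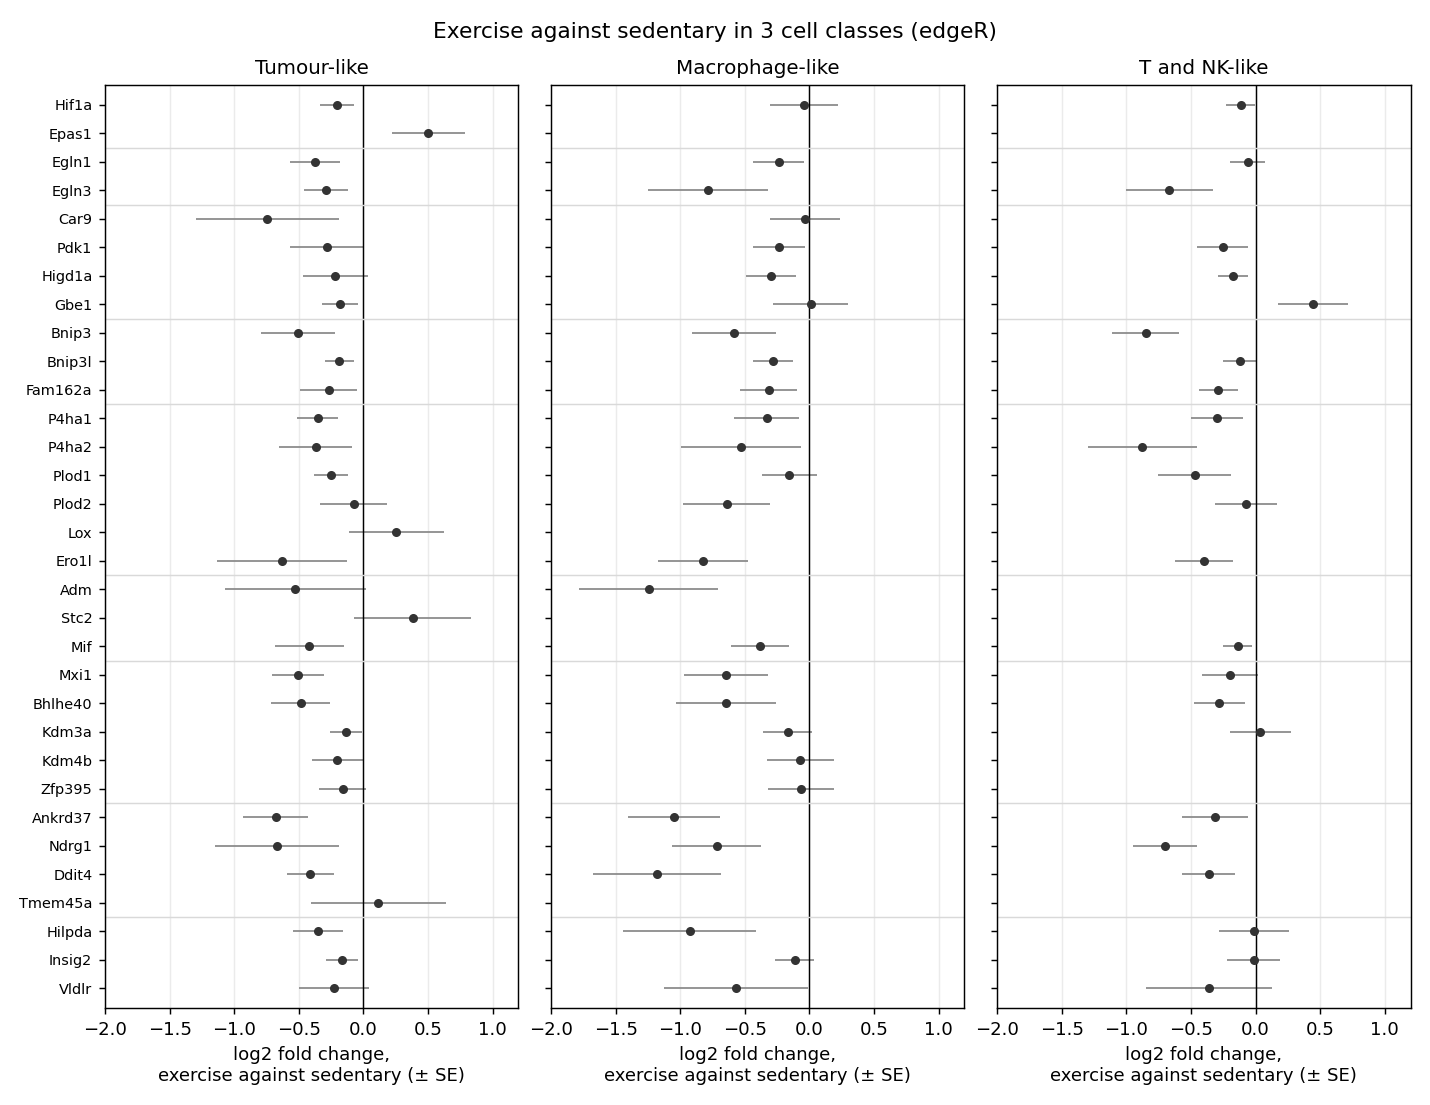
Log2 fold change of each member, exercise against sedentary, with its SE as a bar, in tumour-like, macrophage-like and T and NK-like cells by edgeR. Most points lie left of 0 (28 of 32, 27 of 28 and 22 of 24 tested members) and none passed the adjusted threshold.

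Many members differed between cell classes. Against tumour-like cells, macrophage-like cells had 9 members higher and 17 lower by edgeR with the library as a block, where 38.5% and 41.0% of 14773 genes were called higher and lower. Hilpda stood furthest above, with 326% of the tumour-like level in CPM (log2 difference 1.43, SE 0.20, adjusted p = 2.74e-05), followed by Hif1a (232%, 1.11, SE 0.12), Bhlhe40 (206%, 0.85, SE 0.14) and Mif (160%, 0.65, SE 0.08). All 4 were higher in each of the 6 libraries. Hilpda stood at 42.7, 145 and 107 CPM in sedentary and at 73.0, 20.1 and 66.5 CPM in exercise macrophage-like cells, a wider spread than in tumour-like cells. The Hif1a level was 188 to 334 CPM in these cells. Pdk1, Bnip3, Mxi1, Zfp395 and Ndrg1 were the other members called higher. All 6 collagen and protein folding genes were lower, led by Plod2 (12.5% of the tumour-like level, log2 difference -3.00, SE 0.17). Vldlr (10.3%, -3.32, SE 0.18), Tmem45a (11.2%, -3.37, SE 0.27) and Stc2 (11.5%, -3.26, SE 0.51) fell most. Car9, Higd1a, Kdm3a, Kdm4b, Ankrd37 and Ddit4 were not called.

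T and NK-like cells had 5 members higher and 23 lower than tumour-like cells, where 32.5% and 40.0% of 14915 genes were called. Bhlhe40 stood at 376% of the tumour-like level (log2 difference 1.74, SE 0.09), Hif1a at 286% (1.36, SE 0.08), Epas1 at 224% (1.096, SE 0.26) and Ddit4 at 187% (0.78, SE 0.11), and Mif was called higher too. Hif1a was even across these libraries, at 286, 331 and 346 CPM in the sedentary group and 325, 299 and 281 CPM with exercise. Among the lower members were all 6 collagen and protein folding genes, for example P4ha2 (11.7%, -3.18, SE 0.16), and both Egln1 and Egln3. Adm (8.87%, -3.87, SE 0.30) and Vldlr (10.3%, -3.41, SE 0.14) fell most of the members with a UMI. Tmem45a had no UMI in T and NK-like cells, which with a floor of 3 counts over the pooled class (0.257 CPM) is at least 12.0-fold lower. Pdk1, Higd1a, Stc2 and Hilpda were not called.

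Free RNA in the droplets sets a floor under these differences. Stromal genes that immune cells should lack (Col1a2, Col3a1, Fstl1 and Sparc) stood at 8.85% to 10.3% of their tumour-like level in macrophage-like cells and at 7.11% to 9.78% in T and NK-like cells. Vldlr in macrophage-like cells and Adm in T and NK-like cells were at or below those levels, so their values there are read as background. Tmem45a had no UMI in T and NK-like cells. Tmem45a, Stc2 and Plod2 in macrophage-like cells and Vldlr and P4ha2 in T and NK-like cells lay just above those levels. Free RNA may be part of their values too, which was not tested. The classes also differ in depth, with a median of 18490 UMIs per tumour-like, 3762 per macrophage-like and 2811 per T and NK-like cell. The part of depth in these differences was not tested.

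**Figure D3:**
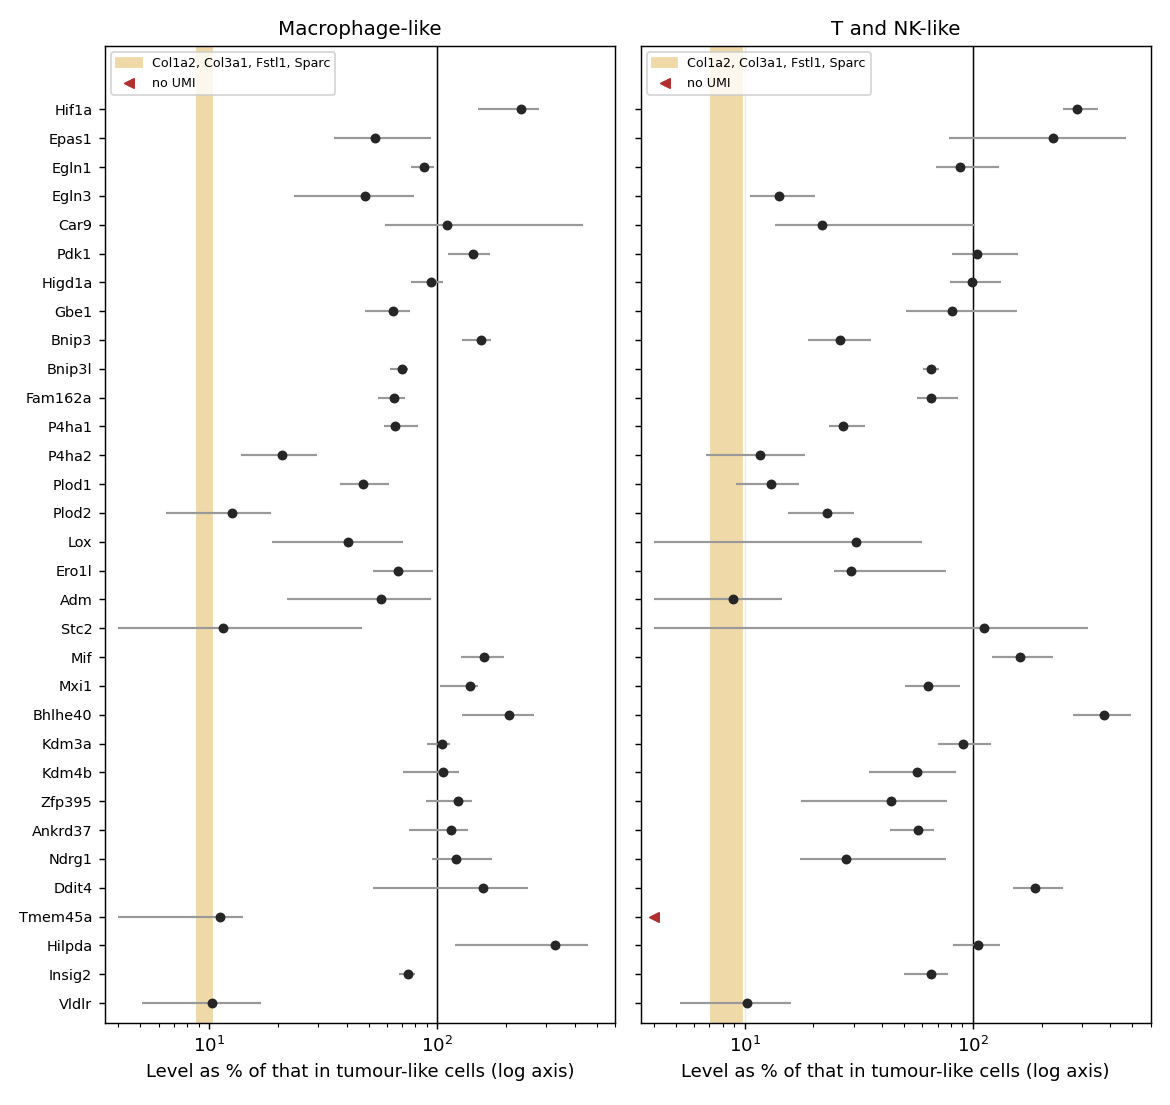
Level of each member in macrophage-like and in T and NK-like cells as a percentage of its tumour-like level (log axis), as a point over all cells with a line for the range over the 6 libraries. The shaded band marks the stromal genes that stand for free RNA, and Hilpda, Hif1a and Bhlhe40 lie right of 100% in macrophage-like cells while Plod2 and Vldlr lie near the band; lines that reach 0 are drawn to the left edge, and a red mark shows Tmem45a, with no UMI in T and NK-like cells.

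Some members peaked in small classes, which are given as levels with no test. Lox had 533 CPM (482 UMIs) in 86 fibroblast-like cells, from 17.1 CPM in sedentary 1 to 1003 CPM in exercise 5, and exercise 5 alone held 335 of the UMIs. Epas1, known from the vessel lining, had 149 CPM (50 UMIs) in 36 endothelial-like cells. Hilpda had 428 CPM in 824 neutrophil-like cells, at 346, 459 and 581 CPM in the sedentary group and 422, 102 and 508 CPM with exercise, where the value of exercise 6 rests on 3 UMIs in 31 cells. Ndrg1 had 575 CPM (122 UMIs) in 151 mast and basophil-like cells, from 377 to 897 CPM by library.

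Tumour-like cells differed in how many hypoxia response genes they held. A cell was scored by how many of 29 members it held with a UMI after thinning to 5000 UMIs, leaving out Hif1a, Epas1 and Mif, and 13 or more was called high, the smallest score reached by at most 10% of cells with libraries weighted equally. The share of such cells was 6.66% (95% exact binomial interval 5.95% to 7.42%) in sedentary 1, 12.3% (11.2% to 13.6%) in sedentary 2 and 12.99% (12.1% to 13.9%) in sedentary 3. It was 10.3% (9.19% to 11.4%) in exercise 5, 2.05% (1.70% to 2.46%) in exercise 6 and 7.45% (6.77% to 8.16%) in exercise 8. The groups overlapped, since sedentary 1 lay below exercise 5 and exercise 8, and exercise 6 was lowest. The means were 10.7 ± 3.48% and 6.59 ± 4.17% (SD, n = 3 each), a difference of -4.08 percentage points that shrank to -1.81 without exercise 6 and was -6.08 without sedentary 1. Intervals cover counting error only, and the shares are a description with no test.

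The score is a range, not a cell type: of 27290 scored cells 2236 were high, 572 of them at the threshold, with 683 just below it. In all 379 cells with fewer UMIs were left out, 43 to 88 per library. Median scores were 5, 7 and 7 members in sedentary and 6, 5 and 6 in exercise libraries. Without thinning, 53.3%, 75.2% and 56.1% of sedentary and 66.6%, 35.1% and 45.8% of exercise cells held 13 or more members, with exercise 6 lowest again. Sedentary 2 and exercise 5, with the deepest tumour-like cells, had the highest of these shares, and the part of depth was not tested. At the same thinned depth 55 of 2943 macrophage-like cells (1.87%), 10 of 78 fibroblast-like cells (12.8%) and 0 of 711 T and NK-like cells reached the threshold, the last allowing a share of up to 0.422%. High-score cells had median UMIs of 14944.5 to 24849.5 by library before thinning, against 16311 to 26712 in the other cells. Their median mitochondrial shares were 3.26% to 4.31% against 3.77% to 4.98%.

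**Figure D4:**
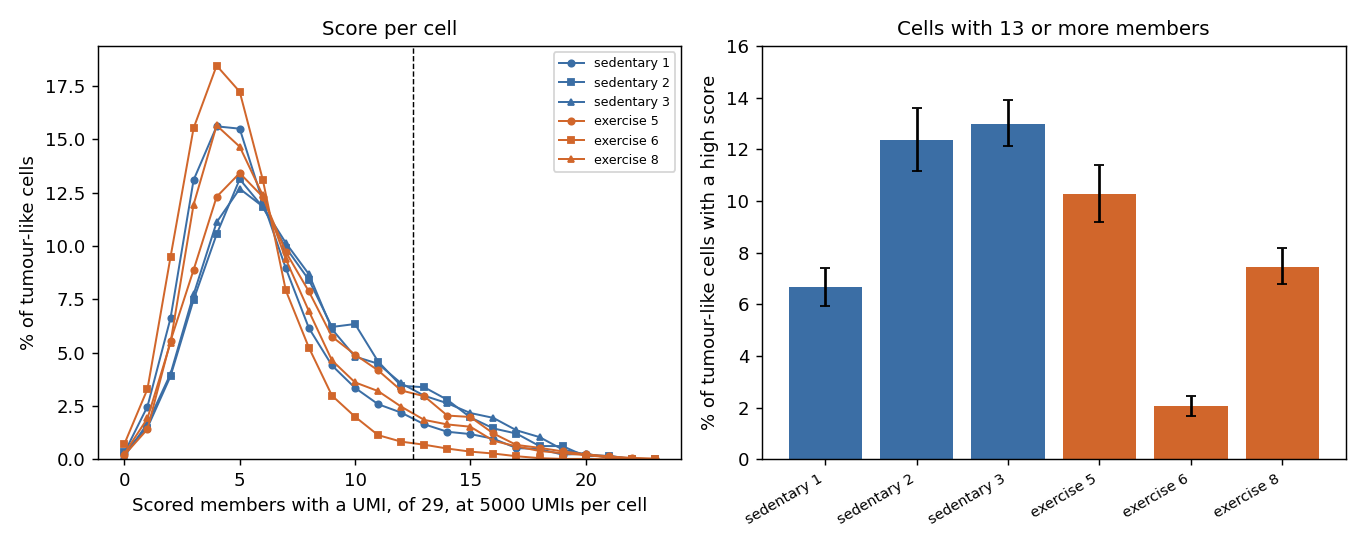
Distribution of the number of scored members detected per tumour-like cell at 5000 UMIs in each library, with a dashed line at 13, and the share of cells at or above it with its 95% exact binomial interval. Exercise 6 has the smallest share (2.05%) and sedentary 3 the largest (12.99%).

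High-score cells were compared with the other tumour-like cells of the same library. For each member the score was computed without that member, and 30 of 32 had a higher level in high-score cells in all 6 libraries, which the use of the other members favours and which carries no test. Car9 had the largest fold (41.4 ± 8.85 against 3.17 ± 1.78 CPM, 13.1-fold, SD over 6 libraries), followed by Ero1l (1363 ± 374 against 116 ± 46.5 CPM, 11.7-fold). Ndrg1 (471 ± 124 against 47.6 ± 17.1 CPM, 9.89-fold), Adm (60.2 ± 20.8 against 6.82 ± 3.63 CPM, 8.82-fold) and Ankrd37 (205 ± 20.4 against 24.6 ± 5.83 CPM, 8.34-fold) came next. These are the members whose promoters were shown above, except Ndrg1. Hif1a was higher by 1.62-fold (163 ± 19.4 against 101 ± 13.4 CPM) in 6 of 6 libraries, Epas1 by 1.08-fold in 4 of 6, and Stc2 stood at 0.553 times the level of other cells and was higher in 2 of 6. Egln1, the oxygen sensor, was at 372 ± 40.5 against 82.0 ± 12.1 CPM, 4.54-fold, and Egln3 at 4.52-fold.

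Genes outside the list were compared in the same cells, counting those whose levels in high-score and other cells had a mean of at least 10 CPM. Both groups count equally in that mean, so a gene can enter through either group alone. The HIF target Ak4 entered through high-score cells (21.4 against 3.73 CPM in other cells), as did the oxygen sensing gene Siah2 (16.1 against 9.48 CPM). The cell division gene Mcm5 entered through the other cells (7.92 CPM in high-score against 25.2 CPM in other cells). So did Mcm2, Plk1, Aurka, Aurkb and Bub1, each under 10 CPM in high-score cells. For such genes the filter favours the direction seen, so the counts below are a description with no test. Of 14 genes of glucose uptake and glycolysis 13 were higher in high-score cells in all 6 libraries, with a median log2 ratio of 1.23. Gapdh, Pkm and Pgam1, the most abundant, were at 2.24, 1.63 and 2.35 times the level of other cells. Of 11 HIF targets outside the list, 9 were higher in all libraries (median 1.57), with the vessel growth factor Vegfa at 146 ± 9.70 against 48.6 ± 4.47 CPM and the haem-degrading enzyme Hmox1 at 5.75-fold, while S100a10 was at 0.907-fold and Anxa2 at 1.30-fold. The oxygen sensing list split, with 4 of 13 higher and 4 lower in all libraries (median 0.16), and its most abundant genes Elob (0.790-fold), Hsp90aa1 (0.932-fold) and Rbx1 (0.872-fold) were not higher. Cell division genes went the other way: 15 of 16 were lower in all libraries (median -1.23), for example Top2a at 0.427-fold, Cenpf at 0.429-fold and Mki67 at 0.434-fold.

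Genes of the integrated stress response and immediate early genes were more mixed as lists. Of 9 stress response genes 3 were higher and 3 lower in all libraries (median 0.51), with Atf4 at 199 ± 68.0 against 132 ± 25.5 CPM, the death-linked factor Ddit3 at 3.09-fold and the serine synthesis enzyme Psat1 at 0.539-fold. Ppp1r15a, among those higher, entered through high-score cells (25.4 against 8.20 CPM in other cells). Of 12 immediate early genes 5 were higher in all libraries (median 0.23), with Ier3 at 6.98-fold, Jun at 1.22-fold and Klf4 at 2.56-fold. Digestion at 37 degrees can raise immediate early genes, and its part was not tested. Among the 7445 other genes above the same level, 13.4% were higher and 30.9% lower in all libraries, with a median of -0.13.

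**Figure D5:**
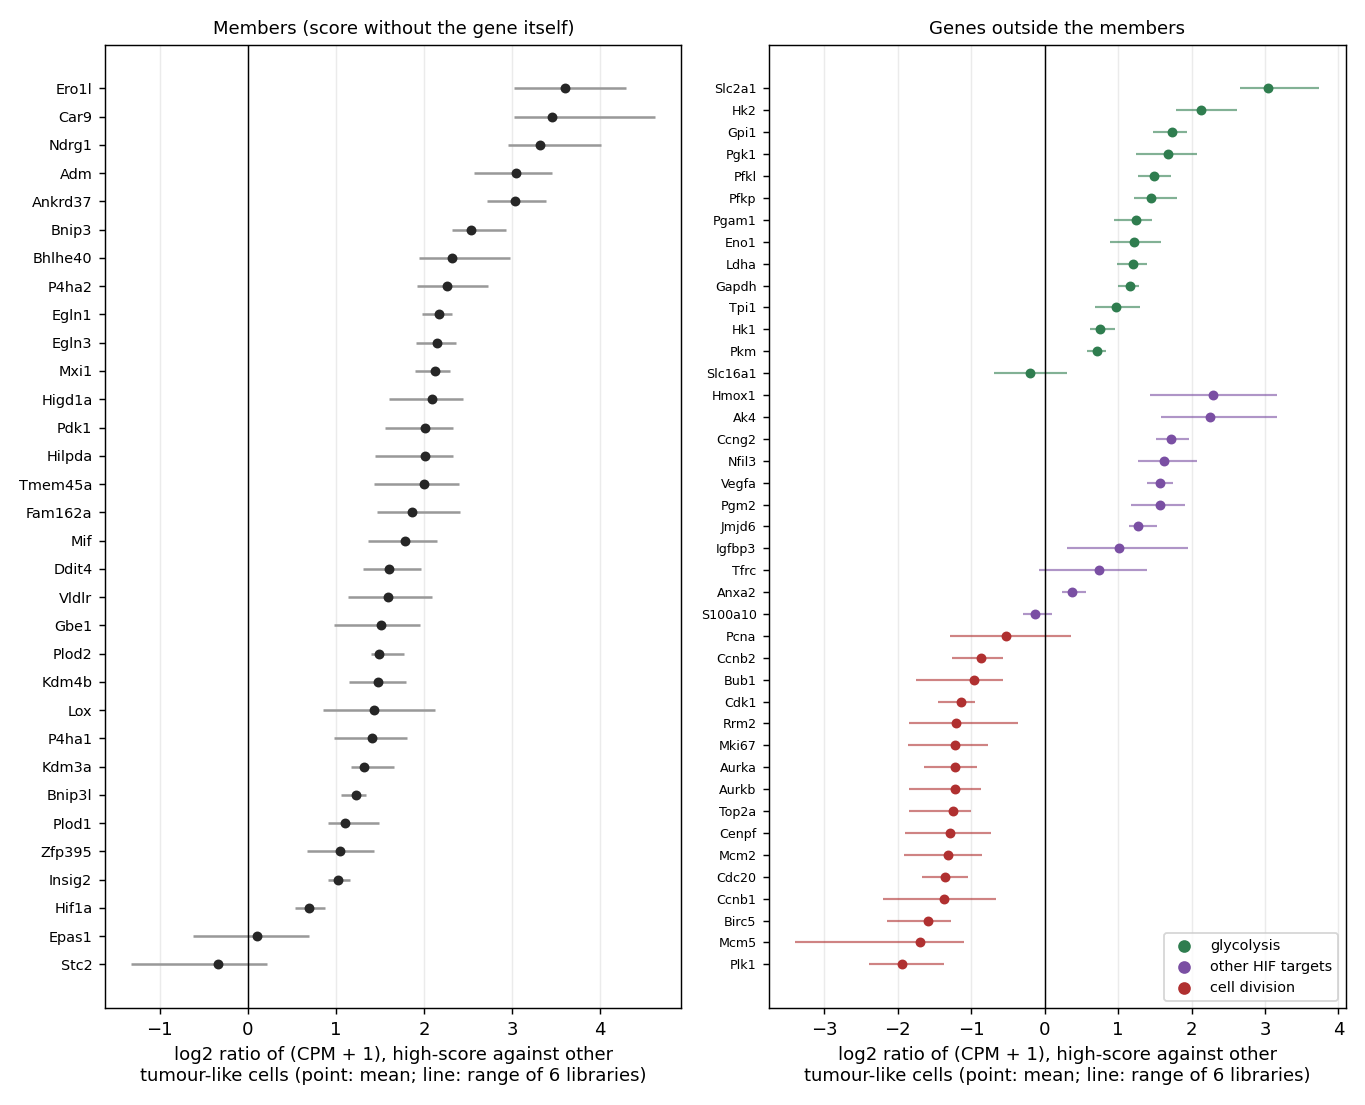
Log2 ratio of high-score to other tumour-like cells for each member and, on the right, for the genes of the pathway lists, as the mean with the range over the 6 libraries. Ero1l and Car9 lie furthest right among the members and cell division genes lie left of 0.

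The same lists were followed between exercise and sedentary libraries, with 0 genes called in any of them by edgeR in tumour-like cells. Of all genes tested, 50.1% lay below 0 in tumour-like, 51.2% in macrophage-like and 49.3% in T and NK-like cells. Of 19 glycolysis genes 15 had a log2 fold change below 0 (median -0.19). Among them was the lactate exporter gene Slc16a3 (-0.84, SE 0.38), whose level was very low, from 0.115 CPM in exercise 6 to 0.396 CPM in sedentary 2. Within the glycolysis list the smallest unadjusted p was that of the glycolytic kinase Pgk1, with a mean of 475 CPM in the sedentary group and 324.9 CPM with exercise (-0.55, SE 0.16). The next in that list was that of the lactate transporter Slc16a1, which was higher with exercise (0.38, SE 0.12). Of 18 HIF targets outside the members 15 lay below 0 (median -0.30), as did 14 of 17 immediate early genes (median -0.13). The lowest of these targets were Cxcr4 (-1.76, SE 0.49) and Igfbp3 (-1.59, SE 0.58). Cxcr4 had the smallest unadjusted p of all the lists by edgeR (0.00753), at low means of 0.836 CPM in the sedentary group and 0.249 CPM with exercise. Oxygen sensing genes were split, 8 of 14 below 0 (median -0.01), as were stress response genes, 5 of 11 (median 0.03). None of 16 cell division genes lay below 0 (median 0.12). In tumour-like cells exercise 6 was the lowest library for Pgk1 (271 CPM), Vegfa (37.8 CPM) and Hmox1 (12.5 CPM) among others, but not for Slc16a1 or Igfbp3. The list medians were not recomputed without exercise 6. In macrophage-like cells 16 of 18 glycolysis genes (median -0.32), 14 of 16 HIF targets (-0.47), 10 of 10 stress response genes (-0.24) and 13 of 17 immediate early genes (-0.17) lay below 0. The same held there for 8 of 13 oxygen sensing genes (-0.02) and 7 of 16 cell division genes (0.02). In T and NK-like cells 16 of 17 glycolysis genes (-0.19), 10 of 10 HIF targets (-0.22), 8 of 14 immediate early genes (-0.03), 5 of 13 oxygen sensing genes (0.03), 2 of 7 stress response genes (0.09) and 1 of 16 cell division genes (0.18) lay below 0.

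The mean of log2(CPM + 1) over the 29 scored members gives the order of libraries in 1 value per class. In tumour-like cells it was 5.14, 5.52 and 5.51 in sedentary and 5.44, 4.60 and 5.15 in exercise libraries. In macrophage-like cells it was 4.65, 5.11 and 5.10, and 4.76, 4.04 and 4.78. In T and NK-like cells it was 4.02, 4.42 and 4.46, and 4.201, 3.91 and 4.10. Exercise 6 was the lowest library and sedentary 2 and 3 were the highest pair in all 3 classes, and sedentary 1 lay below exercise 5 in all 3. The groups overlapped in each class. Free RNA, given above for the stromal genes, is part of the values of the immune classes, and its part in their order was not tested.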

How the data were processed

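The authors deposited unnormalized UMI counts for each gene in each cell barcode. Per the submitters' processing notes, Cell Ranger 6.1.2 and the build mm10 were used, while the file headers give software version 3.1.0. Whether counting used strand is not given in the sources used here. The members, lists and tests were chosen with earlier results of these data known.

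Kept cells had 300 or more genes, 500 or more UMIs and no more than 20% of UMIs from mitochondrial genes. Scrublet (scanpy 1.11.5) removed 861 doublets, 0.946% to 2.42% per library, so doublets may remain. Empty droplets were not analysed here, and free RNA was not corrected. A leukocyte held at least 10 UMIs of leukocyte markers per 10000. Its class needed 3 UMIs from 2 marker genes and 3 times every other list. Tumour-like cells held 3 UMIs from 2 tumour markers, under 2 leukocyte UMIs per 10000 and under 10 of Col1a1 per 10000. Cells that met no rule entered only the whole-tumour sums.

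Counts were summed per library and class and tested with edgeR 4.0.16 (TMM, filterByExpr, quasi-likelihood, Benjamini-Hochberg over all genes, threshold 0.05) in R 4.3.3. DESeq2 1.42.0 was an alternative. Others were no filter on low counts, stricter cell limits, other score settings and leaving out libraries. On simulated tumour-like counts of 14234 genes, edgeR recovered 26.9% of genes changed by 1.5-fold, 62.7% at 2.0-fold and 93.9% at 4.0-fold, and called 10 unchanged genes. Values were named by a rule: the HIF subunits and Egln genes, the 10 smallest unadjusted p-values in tumour-like cells, the 4 largest class differences each way, and in high-score cells the 5 largest and 3 smallest folds and the 3 most abundant genes of each list. Other members are given by level and counts, and those with per-library values outside this rule (Ero1l, Adm and Ndrg1 in tumour-like cells, and members of other classes) were chosen after their values were seen.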

Additional observations from a re-analysis of the deposited data

How the results depend on the processing

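No paired analysis was possible because the sedentary and exercise libraries share no replicate number. In tumour-like cells the HIF and Egln genes and the members named for a small p kept their sign under every alternative. So did the members' medians and the difference in the share of high-score cells. Some other members changed sign: in tumour-like cells 28 lay below 0 in the main test and 31 without exercise 5. Single members' log2 fold changes moved with 1 library: without exercise 6, Hif1a was at -0.09, Egln1 at -0.21, Egln3 at -0.12, Bnip3 at -0.24, Ddit4 at -0.24, Hilpda at -0.18 and Plod1 at -0.14. Without sedentary 3, P4ha1 was at -0.21, Egln1 at -0.25 and Egln3 at -0.17, and without exercise 8 Hif1a was at -0.31. Epas1 was at 0.78 without exercise 5. Counts of genes called between exercise and sedentary libraries changed under some. With DESeq2, 29 genes were called in tumour-like, 2 in macrophage-like and 1 in T and NK-like cells and 18 in the whole tumour, none a member. With no filter on low counts, edgeR called 2 genes in tumour-like, 3 in macrophage-like and 33 in T and NK-like cells, the last with 1 member, Bnip3, and 33 for the difference between classes. Without each library in turn, 0 to 1 gene was called in macrophage-like cells (1 without exercise 8) and 0 to 13 for the difference between classes (3 without exercise 5, 13 without exercise 8). Without sedentary 2 and exercise 5, a choice made after seeing the data, 1 gene was called in tumour-like cells. The members' median log2 fold change in tumour-like cells ranged from -0.41 (without sedentary 1) to -0.10 (without exercise 6), with 27 to 31 members below 0. The difference in the share of high-score cells ranged from -6.08 to -1.81 percentage points without each library in turn. It was -2.40 with high set at 5% and -7.35 with high set at 20% of cells, -3.94 and -4.41 after thinning to 3000 and 10000 UMIs, -4.67 with summed UMIs and -6.30 without sedentary 2 and exercise 5. Scaling by DESeq2 size factors changed no member's direction. In simulated tumour-like counts edgeR recovered 26.9% of genes changed by 1.5-fold and called 10 unchanged genes. In such counts differences as small as most of the members' would mostly be missed with 3 libraries a group. How far this rate holds for the members, whose spread between libraries differs by gene, was not tested.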
